A study of Mus musculus with 31 samples.

Results

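Chemokines are small secreted proteins that guide migrating cells, and chemokine receptors are the membrane proteins that read them. The members were the genes of a hippocampal RNA-seq table whose symbol begins with Ccl, Cxcl, Xcl, Cx3cl, Ccr, Cxcr, Cx3cr, Xcr or Ackr before a digit, or is Ccrl2. The rule found 34 of 15648 genes, of which 24 were ligands and 10 were receptors or receptor-like proteins. The same rule names 62 protein-coding mouse genes in the GENCODE reference used here, and the other 28, 14 ligands and 14 receptors, were not analysed here. Among those 28 were Cxcr3, Cxcr6, Cxcr5, Xcr1, Ccr4 and Ccr9, the receptors of several ligands described below. To enter the table a gene needed 15 or more counts in 15 or more of the 31 mice. The rAAV-OVA mice of 5, 8 and 28 d were 12, so a gene that was silent in all other mice could not enter. Of the 34 members, 22 reached 15 counts in at least 15 of the 19 mice that had received rAAV-control or were examined at 2 d. Ccl2, Ccl3, Ccl4, Ccl7, Ccl8, Ccl17, Ccl22, Cxcl13, Xcl1, Ccr1, Ccr2 and Ccr7 entered the table only with the 12 rAAV-OVA mice of 5, 8 and 28 d, and such a filter favours genes that are higher there. Xcl1 and Ccr7 entered because 5 of the 19 other mice also had 15 counts, and the filter keeps out genes found in the 12 alone. Counts over the members therefore describe the genes in this table and are not evidence about the whole family.

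The tissue was the left hippocampus of adult OT-I/Rag-/- mice, 1 library per mouse. All 31 mice carried the OT-I transgene, a T cell receptor for an ovalbumin (OVA) peptide on the class I molecule H-2Kb, and all lacked Rag1, the recombinase that lymphocytes need to assemble their antigen receptors. The rAAV-OVA group received rAAV-hSyn-OVA-mCherry in dorsal CA1 of both hemispheres, and the rAAV-control group rAAV-hSyn-mCherry, which drives mCherry alone. The hSyn promoter is active in neurons, so the antigen came from transduced neurons, and the T cells that could meet it were OT-I cells. Samples were taken 2, 5, 8 and 28 days after injection, with 4 mice per group and time point and 3 rAAV-control mice at 8 d. The labels give 23 mice to batch 1 and 8 to batch 2, with all mice of 5 and 8 d in batch 1 and 2 mice of each batch in each group at 2 and 28 d. Totals ran from 19046977 to 57407902 counts per mouse with a median of 27024978.

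The dissected tissue carried its defining markers, since all 4 hippocampal neuron markers (Prox1, Zbtb20, Neurod1 and Wfs1) were in the table and summed to between 393 and 893 CPM (counts per 1000000 counts after TMM scaling) in every mouse. The markers listed for CD4 T cells and B cells, such as Cd4, Cd79a and Ms4a1, were not in the table. Nor were Cd3d, Cd3e, Cd3g, Cd8b1 and Cd2 of the T cell list, so absence from the table does not show that a cell type was absent. In whole tissue, more cells of a type and more RNA per cell cannot be told apart. Mouse D720, rAAV-control replicate 2 at 8 d, and mouse D844, rAAV-OVA replicate 4 at 28 d, stood apart from their groups in the chemokine genes. D720 had the highest level of the 3 rAAV-control mice at 8 d for 16 of the 16 members that rose at that time, with a summed level of 305 CPM against 20.1 and 40.0 CPM. D844 had the lowest level of the 4 rAAV-OVA mice at 28 d for 18 of the 19 members that rose then, with 134.6 CPM against 440.0 to 963 CPM, while the rAAV-control mice of 28 d had 64.2 to 96.4 CPM. The T cell markers in the table (Cd8a, Lck and Trbc2) stood apart in the same mice, and summed to 39.6 CPM in D720 against 4.14 and 4.97 CPM in the other rAAV-control mice, and to 35.8 CPM in D844 in a group that reached 722.8 CPM. The Log2FC of 8 and 28 d is therefore also given from a fit without these 2 mice, for each member described that was called in either fit. Both mice were picked for their levels of these same members. Larger increases and more calls at 8 and 28 d in that fit follow from the choice and are no support for a rise.

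Inflammatory chemokines are held low in resting tissue and are transcribed after signals such as interferon gamma and tumour necrosis factor, and their receptors sit mainly on monocytes, macrophages, T cells and dendritic cells. Homeostatic chemokines such as Cxcl12 and Cx3cl1 are made by resident cells of the healthy brain, where Cx3cl1 from neurons is read by Cx3cr1 on microglia. Atypical receptors of the Ackr group bind chemokines without the usual G protein signal and remove or present them.

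The promoters of 4 members that rose at 5 d are shown because each holds an NF-kappa-B type motif that was looked for. Those of Cxcl10 and Ccl19 also hold an interferon type motif. Of the 4 members, Cxcl10 reached at 5 d the highest CPM per kb of all members that rose. The sequences come from RefSeq on GRCm38.p6, another build than that of the counts, which gave windows for 26 of the 34 members. Members without a window included Ccl2, Ccl4, Ccl5, Ccl7, Cxcl5, Cxcl16 and Ccr7. Each run gives the 250 bases before the annotated start, 5′ to 3′ in the direction of transcription, and capitals mark a match. The Cxcl10 window was chr5:92348890-92349139, minus strand, that of Cxcl9 chr5:92328080-92328329, minus strand, that of Ccl19 chr4:42756366-42756615, minus strand, and that of Ccrl2, the most upstream of its 3 starts, chr9:111057519-111057768, minus strand.
Cxcl10: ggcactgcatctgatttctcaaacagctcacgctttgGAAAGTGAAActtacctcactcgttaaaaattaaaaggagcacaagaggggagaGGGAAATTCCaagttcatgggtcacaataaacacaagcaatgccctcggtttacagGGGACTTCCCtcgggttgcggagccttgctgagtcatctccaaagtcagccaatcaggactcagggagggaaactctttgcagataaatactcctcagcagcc
Cxcl9: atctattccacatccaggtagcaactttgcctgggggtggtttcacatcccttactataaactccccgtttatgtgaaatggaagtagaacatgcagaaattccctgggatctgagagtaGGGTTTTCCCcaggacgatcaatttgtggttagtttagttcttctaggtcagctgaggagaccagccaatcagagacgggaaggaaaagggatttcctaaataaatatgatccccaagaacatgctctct
Ccl19: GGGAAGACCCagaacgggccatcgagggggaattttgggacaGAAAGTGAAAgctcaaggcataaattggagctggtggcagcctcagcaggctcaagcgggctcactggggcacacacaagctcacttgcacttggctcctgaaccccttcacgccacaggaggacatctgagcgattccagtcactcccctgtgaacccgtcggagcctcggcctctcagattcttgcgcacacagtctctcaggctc
Ccrl2: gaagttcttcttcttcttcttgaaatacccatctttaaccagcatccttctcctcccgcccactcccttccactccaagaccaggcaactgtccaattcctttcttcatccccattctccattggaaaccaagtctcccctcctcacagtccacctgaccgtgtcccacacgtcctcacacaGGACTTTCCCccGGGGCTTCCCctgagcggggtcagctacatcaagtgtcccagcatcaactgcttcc

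The 3 motifs were searched on both strands, and matches of different motifs did not overlap in the members. The ISRE core, GAAA and GAAA with any 2 bases between them, known as a site of interferon regulatory factors, was in 2.98% of the 32851 promoter windows of the table. Among the members it was in Cxcl10, 213 to 204 bases before the start, in Ccl19, 208 to 199 bases before it, both as GAAAGTGAAA, and in Cxcl14. The kappa-B like motif, GGGAA and CC with any 3 bases between them, was in 4.94% of all windows and in 4 members. Cxcl10 held it at 159 to 150 bases and, on the other strand, at 103 to 94 bases before the start, Cxcl9 at 130 to 121 bases, Ccrl2 at 68 to 59 and 56 to 47 bases, and Ccl19 at the upstream end of its window. The matches in Cxcl9 and Ccrl2 also read on the other strand. The GAS motif, an interferon gamma activated site written TTCNNNGAA, was in 7.02% of all windows and in the members Ccl17 and Cxcl14. Of the 12 members with a window that rose at 5 d, 2 held the ISRE core, 4 the kappa-B like motif and 0 the GAS motif, and of the other 14 members with a window 1, 0 and 2 did. By window, 9.68%, 12.9% and 6.45% of the 31 member windows held the ISRE core, the kappa-B like and the GAS motif. A match is a run of letters and says nothing about binding.

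At 2 d, whether OVA altered the chemokine genes soon after injection was asked, and 0 of 34 members were called between rAAV-OVA and rAAV-control mice. A member was called when edgeR's quasi-likelihood test gave an FDR (Benjamini-Hochberg over all 15648 genes) no higher than 0.05 together with a Log2FC of 0.66 or more in either direction, and at 2 d this held for 0% of all genes. The Log2FC comes from a model with 8 groups and 2 surrogate variables and can differ from the plain ratio of CPM. Of the members, 10 had an unadjusted p under 0.05, against 9.13% of all genes. DESeq2's Wald test also called 0 members, with 11 at an unadjusted p under 0.05, and it called 10 genes in all. The estimates pointed down for 21 members, the lowest being that of Ccl3, a ligand of Ccr1, at -2.66 (SE 0.81, FDR 0.333). Within batch 1, 17 members were lower in both rAAV-OVA mice than in both rAAV-control mice, against 19% of all genes, and 7 were higher, against 18.8%, while within batch 2 these were 3, against 17.6%, and 4, against 18.5%. The Ccl3 difference in mean log2 CPM was -4.31 in batch 1 and -0.30 in batch 2. The lowest FDR was that of Ccl9, a Ccr1 ligand, at -1.33 (SE 0.37, FDR 0.301). Ccl3 measured 0.622, 0.337, 1.85 and 1.43 CPM in the rAAV-OVA mice and 5.95, 18.4, 1.42 and 2.85 CPM in the rAAV-control mice, with overlapping groups. Ccl17, a ligand of Ccr4, had the highest estimate, 1.68 (SE 0.62, FDR 0.424). Of the receptors, Ccrl2 stood at -1.16 (SE 0.43, FDR 0.427), Ccr1 at -1.08 (SE 0.42, FDR 0.451) and Cx3cr1 at -0.66 (SE 0.24, FDR 0.414). In the same mice the monocyte and macrophage markers summed to 75.4 to 150.1 CPM with OVA and 153 to 955 CPM without it, and the 2 neutrophil markers to 7.07 to 10.3 and 12.7 to 54.7 CPM. Neither sum overlapped, but 150.1 and 153 CPM lay close, and D743 had the highest value of both sums. At 2 d 0 of the 7 monocyte and macrophage markers and 0 of the 2 neutrophil markers were called. Their part was not tested.

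From 5 d on, many inflammatory ligands and receptors were higher in the rAAV-OVA mice. At 5 d, 20 of 34 members were called, 19 higher and 1 lower, against 14.2% of all genes, of which 9.56% were higher and 4.67% lower. The calls were 11 of the 22 members that passed the filter on counts without the rAAV-OVA mice of 5, 8 and 28 d, and 9 of the 12 that entered with them, whose share cannot be read against that of all genes. Of the ligands, 13 rose and Cxcl12 fell, and of the receptors 6 rose. The median Log2FC over the 34 members was 1.92, against -0.0123 over all genes, and in 24 members each rAAV-OVA mouse lay above each rAAV-control mouse, against 21% of all genes. Both values include the 12 members that entered with those mice, so they too cannot be read against all genes. The largest increases were those of Xcl1, Ccl7, Cxcl9, Ccr7, Cxcl10, Ccl2, Ccl8, Ccr2, Ccl22 and Ccr1, each with a Log2FC of at least 4.04. In all, 18 of the 20 calls held when each of the 31 mice was left out in turn. Ccl6 was not called without D786, D723, D724 or BEC-B542, and Cxcr4 was not called without D786 or D724.

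At 8 d, 16 members were called, 10 ligands and 6 receptors, and each of them was higher in the rAAV-OVA mice, against 9.94% of all genes called and 9.36% higher. They were 8 of the 22 members that passed the filter without the rAAV-OVA mice and 8 of the 12 that entered with them. The median Log2FC of the 34 members was 1.58, against -0.0303 over all genes, and 14 members lay higher without overlap of the groups, against 14.4% of all genes. The median and this number include the 12 members that entered with those mice and cannot be read against all genes. The calls of this time point rested on few mice. With each of the 31 mice left out in turn, Xcl1 and Ccr7 were called in every fit, and the number of members called fell to 3 without D722, the rAAV-control replicate 3 of 8 d, to 8 without D696, the rAAV-control replicate 1, to 10 without D701, the rAAV-OVA replicate 2, to 6 without BEC-B541, the rAAV-OVA replicate 3 of 2 d, and to 6 without D845, the rAAV-OVA replicate 3 of 28 d. Ccl7, Ccl8 and Cxcl10 were lost in 14, 12 and 12 of the 31 fits. How many of all genes were called in these fits is not given here, so the falls cannot be read as particular to the members. The mice of 2 and 28 d entered through the 2 surrogate variables, which were estimated over all mice. A fit of the 7 mice of 8 d alone called 0 of 15648 genes with edgeR, with 14 members at an unadjusted p under 0.05, and DESeq2 over all mice called 18 members and 1651 genes in all. Without D720 and D844, 22 members were called, 21 higher and 1 lower, among them the 16, while the number of all genes called went from 1556 to 2181. D720 was left out for its high member levels, which by itself raises the Log2FC of these members at 8 d.

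At 28 d, 19 members were called, 12 ligands and 7 receptors, all of them higher, against 17.6% of all genes called and 12.7% higher. Of the 22 members that passed the filter without the rAAV-OVA mice 9 were called, and of the other 12 there were 10. The median, the number without overlap and the batch counts that follow include those 12 and cannot be read against all genes. The median Log2FC of the members was 2.10, against 0.0118 over all genes, and 17 members lay higher without overlap, against 15% of all genes. Within batch 1, 25 members were higher in both rAAV-OVA mice than in both rAAV-control mice, against 30% of all genes, and 5 were lower in both, against 35.5%, with a median difference of 3.06 on the log2 CPM scale. Within batch 2, which held D844, 20 members were higher, against 30.2% of all genes, and 3 lower, against 27.2%, with a median of 1.81. An edgeR fit of the 4 batch 2 mice of 28 d called 0 members and 402 of all 15648 genes, with 18 members at an unadjusted p under 0.05. A fit of batch 1 alone called 24 members, 23 higher and Ackr2 lower, and 2341 of all genes. Without D720 and D844, 25 members were called, 24 higher and 1 lower, among them the 19, while the number of all genes called went from 2750 to 3296. With each mouse left out in turn, 15 calls held. Ccl3 was lost in 13 of the 31 fits, Cxcl13 without BEC-B542, D845 or D844, Ccl17 without BEC-B542, and Ccrl2 without D661.

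**Figure D1:**
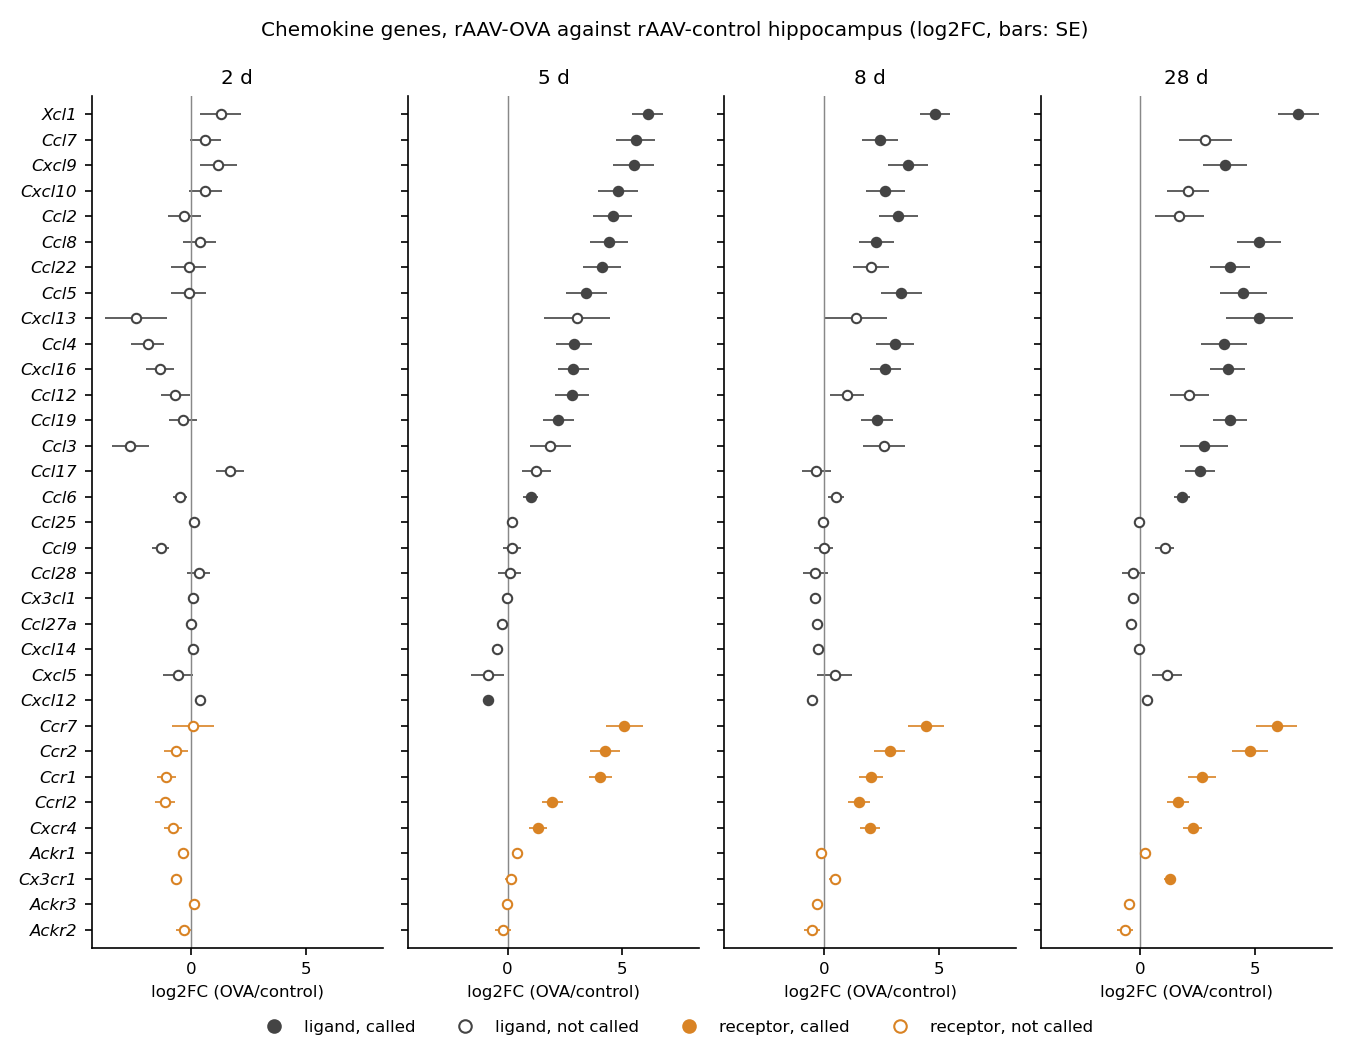
Log2FC of the members at 2, 5, 8 and 28 d in rAAV-OVA against rAAV-control mice, with bars for the SE, ligands in grey and receptors in orange, and filled points for called members. All points at 2 d are open, the filled points at 5, 8 and 28 d lie to the right of 0, and Cxcl12 at 5 d is the 1 filled point to the left.

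Markers of leukocytes moved with these genes. At 5 d the 3 T cell markers in the table, of 8 listed, were all higher, and their sum was 115 to 176 CPM in the rAAV-OVA mice and 1.88 to 5.01 CPM in the rAAV-control mice. The monocyte and macrophage list had 7 of 7 markers in the table, of which 5 rose at 5 d, and summed to 609 to 1262 CPM against 19.3 to 173 CPM. Of the 6 microglia markers in the table, of 7 listed, 3 rose, Csf1r and Tmem119 among them, and Gpr34 fell, and the sum was 953 to 972 CPM against 422 to 658 CPM. The 4 dendritic cell markers in the table, of 6, included 1 that rose, Itgax, which other myeloid cells also express, and Klrk1 was the 1 of 2 NK cell markers that rose, a receptor that CD8 T cells also carry. Neither S100a8 nor Csf3r, the 2 of 6 neutrophil markers in the table, was called at 5 d, with a summed level of 25.9 to 35.6 CPM against 5.19 to 16.9 CPM. No marker in the table was at 0 throughout a group. At 8 d the T cell sum was 181 to 589 CPM and the monocyte sum 429 to 1835 CPM in the rAAV-OVA mice, against 4.14 to 39.6 and 27 to 246 CPM. At 28 d they were 35.8 to 722.8 and 83.9 to 1559 CPM, against 1.51 to 2.54 and 10.4 to 23.3 CPM. The part of these cells in the chemokine results was not tested.

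The ligands of Ccr2, the receptor that draws monocytes out of the blood, rose early. At 5 d Ccl2 measured 62.8, 22.9, 55.7 and 38.2 CPM in the rAAV-OVA mice and 0.0447, 2.05, 0.371 and 0.879 CPM in the rAAV-control mice. The groups did not overlap, and the Log2FC was 4.58 (SE 0.85, FDR 0.000368). Ccl7 had 53.8, 13.8, 35.1 and 24.9 CPM against 0.0895, 0.585, 0.334 and 0.215 CPM, again without overlap, and the largest Log2FC of the Ccr2 ligands, 5.58 (SE 0.86, FDR 6.90e-05). Ccl12, the mouse relative of Ccl2, rose by 2.82 (SE 0.76, FDR 0.00725), with 12.3 to 18.5 CPM in the rAAV-OVA mice and 0.403 to 2.08 CPM in the rAAV-control mice. At 5 d D725 was the highest and D726 the lowest of the 4 rAAV-OVA mice for both Ccl2 and Ccl7. At 8 d Ccl2 and Ccl7 were still higher, with Log2FC values of 3.24 (SE 0.85, FDR 0.0106) and 2.44 (SE 0.79, FDR 0.0342). The fit without D720 and D844 gave 5.48 (SE 1.04, FDR 0.000501) and 4.19 (SE 0.97, FDR 0.00298). Ccl12 was not called at 8 d in either fit, with 1.02 (SE 0.75, FDR 0.341) over all mice, where the groups overlapped, and 1.80 (SE 0.85, FDR 0.117) without the 2. Mouse D720 then had 13.4 CPM of Ccl2, inside the range of the rAAV-OVA mice (13.3 to 28.4 CPM), while the other rAAV-control mice had 0.0835 and 0.915 CPM. Both calls at 8 d were lost without D722, and also without BEC-B541, D701, D696 or D845.

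At 28 d the same 3 ligands did not pass. Ccl2 measured 4.48, 3.07, 5.24 and 0.207 CPM in the rAAV-OVA mice and 0.50, 0.682, 0.0366 and 0 CPM in the rAAV-control mice, with the low last rAAV-OVA value in D844, and its Log2FC was 1.70 (SE 1.06, FDR 0.221). Ccl7 stood at 2.82 (SE 1.16, FDR 0.0627) and Ccl12 at 2.14 (SE 0.84, FDR 0.0533). Without D720 and D844 all of them passed, Ccl2 with 2.82 (FDR 0.0317), Ccl7 with 3.60 (FDR 0.0186) and Ccl12 with 2.81 (FDR 0.022). D844 was left out for its low member levels, so these calls follow in part from that choice and are no support for a rise. DESeq2 over all mice also called Ccl7 and Ccl12 at 28 d, and edgeR without surrogate variables, or with the batch label in their place, called all 3. Ccl8, a monocyte chemoattractant protein of the same gene cluster, was called at 5, 8 and 28 d. It measured 3.88, 3.85, 4.81 and 4.82 CPM at 5 d against 0, 0.0731, 0.148 and 0.179 CPM, and 3.64, 0.81, 13.3 and 1.07 CPM at 28 d against 0.0385, 0.12, 0.0366 and 0.0915 CPM. The groups did not overlap at either time, and the Log2FC was 4.43 (SE 0.84, FDR 0.000428) at 5 d, 2.27 (SE 0.76, FDR 0.0388) at 8 d and 5.17 (SE 0.95, FDR 0.000501) at 28 d. Ccl8 without D720 and D844 had 4.07 (SE 0.92, FDR 0.00239) at 8 d and 5.80 (SE 0.96, FDR 8.49e-05) at 28 d. Over the 4 rAAV-control mice of 28 d, Ccl8 had 7 counts in all and Ccl7 had 9, so their folds at that time rest on few counts in the control group.

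Ccr2 itself was among the receptors with the largest increases. It measured 44.4, 24.2, 28.4 and 18.6 CPM in the rAAV-OVA mice at 5 d and 0.358, 1.24, 0.816 and 1.06 CPM in the rAAV-control mice, a Log2FC of 4.25 (SE 0.65, FDR 7.06e-05). At 8 d the values were 18.6, 9.62, 10.3 and 17 CPM against 0.334, 4.75 and 1.47 CPM, and the Log2FC was 2.86 (SE 0.66, FDR 0.00431). At 28 d Ccr2 stood at 21.1, 10.8, 23.9 and 1.14 CPM against 0.269, 0.602, 0 and 0.137 CPM, with a Log2FC of 4.79 (SE 0.79, FDR 0.000237). The groups did not overlap at any of the 3 times, and the closest approach was at 28 d, where D844 had 1.14 CPM and the highest rAAV-control mouse 0.602 CPM. Ccr2 without D720 and D844 had 3.93 (SE 0.63, FDR 7.60e-05) at 8 d and 6.01 (SE 0.64, FDR 5.84e-07) at 28 d. At 8 d the Ccr2 call was lost without D722, and at 5 and 28 d it held with each mouse left out.

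The ligands of Ccr1, a receptor of monocytes and macrophages, and the related Ccl4 were led by Ccl5, which cytotoxic T cells make in large amounts. Ccl5 measured 65.5, 70.3, 79.1 and 55.3 CPM in the rAAV-OVA mice at 5 d and 1.07, 2.12, 2.56 and 5.87 CPM in the rAAV-control mice, a Log2FC of 3.44 (SE 0.88, FDR 0.00524). At 8 d it reached 154, 46.4, 68.2 and 133 CPM, with 1.46, 34 and 1.47 CPM in the rAAV-control mice, where the high value was that of D720, and the Log2FC was 3.38 (SE 0.90, FDR 0.0119). At 28 d the values were 135, 43.2, 68.4 and 3.69 CPM against 2.08, 1.68, 0.0732 and 0.366 CPM, and the Log2FC was 4.49 (SE 1.02, FDR 0.00223). The groups stayed apart at each of these times, and without D720 and D844 Ccl5 had 6.18 (SE 0.91, FDR 3.81e-05) at 8 d and 6.43 (SE 0.80, FDR 3.57e-06) at 28 d. At 2 d Ccl5 had been at 4.33 to 21.4 CPM with OVA and 12.1 to 22.9 CPM without it, so that the rAAV-control mice of 2 d carried more Ccl5 than those of any later time except D720.

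Ccl4, a macrophage inflammatory protein, was called at 5, 8 and 28 d, with Log2FC values of 2.89 (SE 0.80, FDR 0.00895), 3.09 (SE 0.82, FDR 0.0111) and 3.63 (SE 1.00, FDR 0.00817). The groups overlapped at 28 d, where the lowest rAAV-OVA mouse had 0.172 CPM and the highest rAAV-control mouse 0.192 CPM. At 8 d the call was lost without BEC-B541, D696, D722 or D845. Ccl4 without D720 and D844 had 5.43 (SE 0.94, FDR 0.000181) at 8 d and 5.07 (SE 0.87, FDR 0.000121) at 28 d. Its neighbour Ccl3 was called at 28 d, with 2.76 (SE 1.04, FDR 0.0441), and stood at 1.87 (SE 0.89, FDR 0.116) at 5 d and 2.60 (SE 0.92, FDR 0.0501) at 8 d. Whether Ccl3 was called at the earlier times turned on the fit. It was called at 5 d too without D720 and D844 and had 4.85 (SE 1.07, FDR 0.00197) at 8 d and 4.29 (SE 0.97, FDR 0.00173) at 28 d, DESeq2 called it at 8 d, and a fit without surrogate variables called it at 5 d. At 5 d Ccl3 measured 9.27, 5.82, 6.87 and 3.91 CPM with OVA and 0.224, 0.402, 0.445 and 2.46 CPM without it, and the groups did not overlap. Among the rAAV-control mice D755 was the highest for both Ccl3 and Ccl4. Ccl6, a ligand of Ccr1 that macrophages and microglia express, rose at 5 d by 1.00 (SE 0.32, FDR 0.0208) and at 28 d by 1.81 (SE 0.34, FDR 0.000561), and had 0.53 (SE 0.33, FDR 0.264) at 8 d. It measured 15.3, 9.86, 18.7 and 2.72 CPM at 28 d against 2.0, 2.29, 1.72 and 2.29 CPM, with D844 nearest to the rAAV-control mice. Ccl6 without D720 and D844 was also called at 8 d and had 1.12 (SE 0.31, FDR 0.0121) at 8 d and 2.59 (SE 0.32, FDR 2.47e-06) at 28 d. Ccl9, another Ccr1 ligand, missed the call at 28 d with 1.06 (SE 0.42, FDR 0.0525), while DESeq2 and the edgeR fits with DESeq2 size factors, with the batch label or without surrogate variables called it there, and so did the fit without D720 and D844 with 1.56 (SE 0.47, FDR 0.0133).

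Ccr1 itself rose at 5, 8 and 28 d. It measured 16.9, 13.5, 16.2 and 9.44 CPM in the rAAV-OVA mice at 5 d and 0.447, 0.475, 0.594 and 0.538 CPM in the rAAV-control mice, which did not overlap, a Log2FC of 4.04 (SE 0.50, FDR 8.69e-06). At 8 d it had 5.41, 2.71, 3.75 and 5.45 CPM against 0.251, 1.66 and 0.836 CPM, also without overlap, and a Log2FC of 2.05 (SE 0.51, FDR 0.00725), a call that was lost without BEC-B541 or D722. At 28 d the values were 2.62, 1.87, 5.35 and 0.241 CPM against 0.231, 0.16, 0.11 and 0.32 CPM, where D844 fell inside the rAAV-control range, and the Log2FC was 2.69 (SE 0.60, FDR 0.00184). Ccr1 without D720 and D844 had 2.73 (SE 0.54, FDR 0.000705) at 8 d and 3.50 (SE 0.57, FDR 6.74e-05) at 28 d.

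Cxcl9 and Cxcl10, ligands that interferon gamma induces and that attract activated T cells through Cxcr3, both rose at 5 and 8 d. Cxcl10 measured 366, 119, 267 and 259.8 CPM in the rAAV-OVA mice at 5 d and 0.895, 10.9, 1.85 and 2.92 CPM in the rAAV-control mice. The groups did not overlap, and the Log2FC was 4.81 (SE 0.87, FDR 0.000307). Cxcl9 had 150.2, 102, 179 and 139 CPM against 0.671, 4.24, 1.11 and 0.664 CPM, also without overlap, and a Log2FC of 5.49 (SE 0.90, FDR 0.000128). At 8 d Cxcl9 was at 281, 124, 150.2 and 253 CPM against 3.05, 72.7 and 4.85 CPM and Cxcl10 at 143, 64.7, 96.9 and 122 CPM against 1.59, 84.3 and 10.5 CPM. D720 held the high rAAV-control value of both genes, and for Cxcl10 it lay above D701, the lowest rAAV-OVA mouse. The increase at 8 d was 3.67 (SE 0.88, FDR 0.00586) for Cxcl9 and 2.68 (SE 0.87, FDR 0.0342) for Cxcl10, and both calls were lost without D722, D696 or D845, that of Cxcl10 in 12 of the 31 fits in all. Both were larger without D720 and D844, at 5.55 (SE 0.93, FDR 0.000142) for Cxcl9 and 4.08 (SE 1.00, FDR 0.0047) for Cxcl10.

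At 28 d Cxcl9 was called and Cxcl10 was not. Cxcl9 measured 131, 48.8, 97.5 and 3.24 CPM against 3.69, 1.6, 0.0732 and 0.275 CPM in the rAAV-control mice, where D844 fell inside the rAAV-control range, and it was called with 3.67 (SE 0.96, FDR 0.00562). Cxcl10 measured 35.2, 21.1, 64.2 and 2.24 CPM against 4.58, 2.73, 0.366 and 0.549 CPM, with the same overlap, and was not called at 2.07 (SE 0.93, FDR 0.0864). Without D720 and D844 it was called, with 3.06 (SE 0.98, FDR 0.0172). It was also called by edgeR without surrogate variables or with the batch label in their place. Cxcl9 without the 2 mice had 5.15 (SE 0.88, FDR 0.000135). The change of the Cxcl10 response between 5 and 28 d was -2.73 (SE 1.15, FDR 0.128) and of the Cxcl9 response -1.82 (SE 1.23, FDR 0.349), of which neither passed and both changed sign in batch 1 alone.

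**Figure D2:**
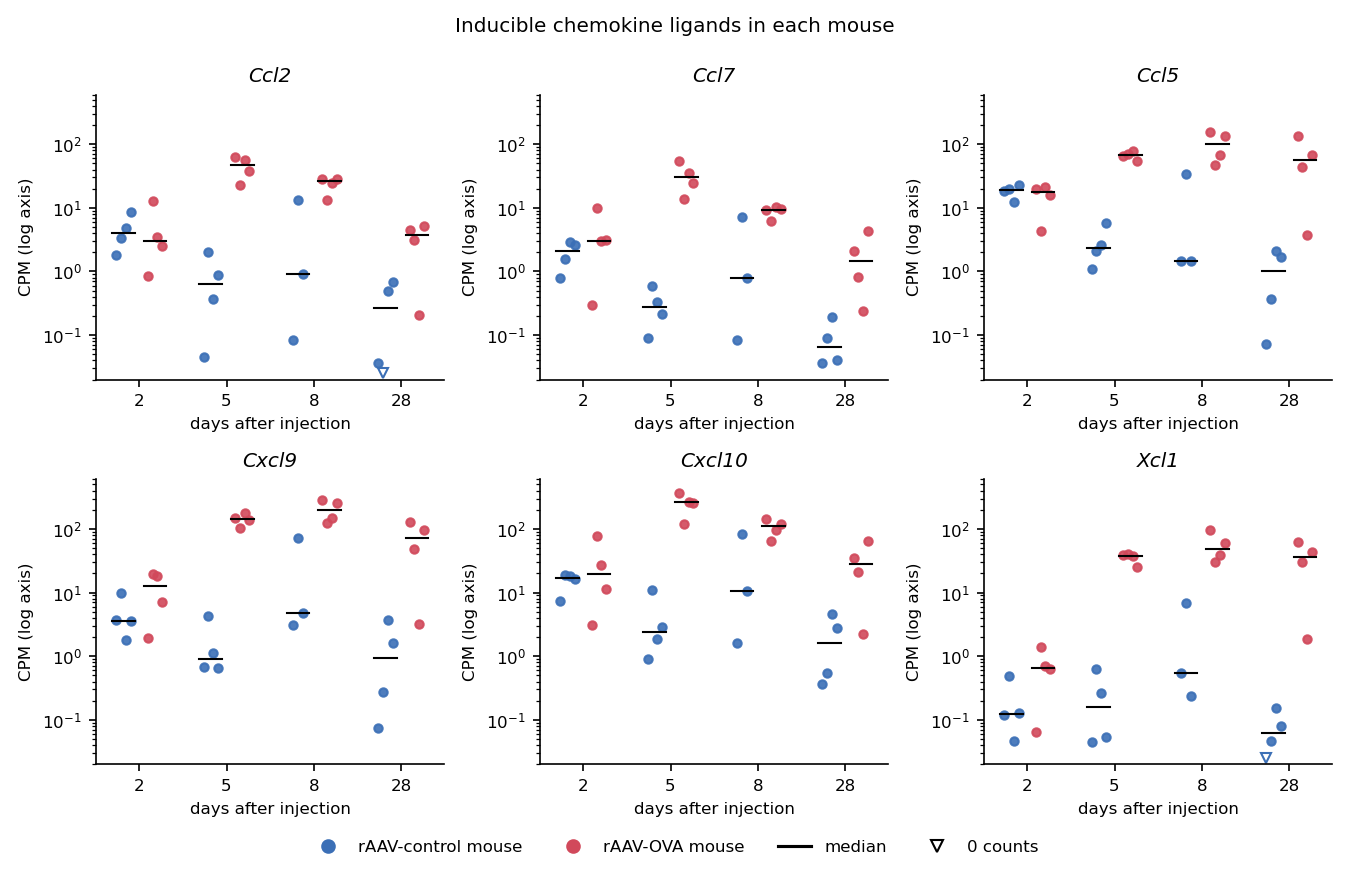
CPM of 6 ligands in every mouse on a log axis, by days after injection, with rAAV-control mice in blue, rAAV-OVA mice in red, a black line for the median and a triangle for a mouse with 0 counts. The rAAV-OVA points lie above all rAAV-control points at 5 d in all 6 panels, 1 rAAV-control mouse (D720) is high at 8 d, and 1 rAAV-OVA mouse (D844) is low at 28 d.

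Xcl1, which activated CD8 T cells and NK cells release and which attracts dendritic cells that carry Xcr1, had the largest Log2FC of all members at 5, 8 and 28 d. It measured 39.4, 40.7, 37 and 25.4 CPM in the rAAV-OVA mice at 5 d and 0.0447, 0.621, 0.26 and 0.0538 CPM in the rAAV-control mice. At 8 d the values were 96.8, 30.7, 38.4 and 59.4 CPM against 0.543, 6.9 and 0.239 CPM, and at 28 d 61.8, 30, 43.6 and 1.9 CPM against 0.154, 0.0802, 0 and 0.0458 CPM. No rAAV-OVA mouse overlapped with the rAAV-control mice at these times, although D720 with 6.9 CPM lay above D844 of 28 d with 1.9 CPM. The Log2FC was 6.11 (SE 0.69, FDR 4.97e-06) at 5 d, 4.83 (SE 0.64, FDR 8.77e-05) at 8 d and 6.89 (SE 0.88, FDR 2.55e-05) at 28 d, and each of these calls held with every mouse left out in turn. Xcl1 without D720 and D844 had 6.81 (SE 0.65, FDR 7.06e-07) at 8 d and 8.11 (SE 0.72, FDR 5.65e-08) at 28 d. The 4 rAAV-control mice of 28 d had 7 counts of Xcl1 together, so the size of the fold at 28 d rests on few counts. Cxcl16, made as a membrane protein and then shed, is the ligand of Cxcr6 on effector T cells. It measured 91.1, 81.4, 94.7 and 69 CPM at 5 d against 1.79, 4.9, 4.49 and 11.2 CPM and rose by 2.86 (SE 0.68, FDR 0.00289), and by 2.68 (SE 0.70, FDR 0.0098) and 3.80 (SE 0.75, FDR 0.000798) at 8 and 28 d. The groups did not overlap at any of the 3 times, and without D720 and D844 Cxcl16 had 4.40 (SE 0.70, FDR 7.61e-05) at 8 d and 5.23 (SE 0.64, FDR 2.82e-06) at 28 d.

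The lymph node axis of Ccl19 and Ccr7, which brings T cells and dendritic cells together in lymphoid tissue, rose on both sides. Ccr7 measured 18.9, 18.4, 21.2 and 14.1 CPM in the rAAV-OVA mice at 5 d and 0, 0.731, 0.148 and 0.179 CPM in the rAAV-control mice, a Log2FC of 5.09 (SE 0.81, FDR 9.54e-05). It measured 46.2, 20.6, 22.7 and 27.9 CPM at 8 d against 0.125, 4.97 and 0.318 CPM, and 55.8, 15.5, 69.9 and 3.9 CPM at 28 d against 0.154, 0.561, 0 and 0.0915 CPM. Groups were separate at each time, and the Log2FC was 4.44 (SE 0.80, FDR 0.000635) and 5.95 (SE 0.89, FDR 0.000115). Ccr7 without D720 and D844 had 6.79 (SE 0.93, FDR 1.77e-05) at 8 d and 7.03 (SE 0.84, FDR 2.06e-06) at 28 d. Ccl19 had 11.1, 10.6, 8.83 and 7.01 CPM at 5 d against 0.313, 1.13, 1.3 and 1.49 CPM, and 18.6, 7.57, 31.9 and 2.03 CPM at 28 d against 0.154, 0.682, 0.329 and 0.824 CPM, where D844 was the low rAAV-OVA mouse. Its increase was 2.22 (SE 0.67, FDR 0.0156) at 5 d, 2.31 (SE 0.68, FDR 0.0216) at 8 d and 3.90 (SE 0.75, FDR 0.000697) at 28 d, without overlap at any of them. Ccl19 without D720 and D844 had 4.21 (SE 0.66, FDR 6.17e-05) at 8 d and 5.14 (SE 0.62, FDR 1.98e-06) at 28 d. Near-identical copies of Ccl19 exist in the mouse genome, and Salmon divides shared reads between copies by probability, so its level is less certain.

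Ccl22 and Ccl17, which dendritic cells and macrophages secrete and which bind Ccr4, were both called at 28 d, and Ccl22 also at 5 d. Ccl22 measured 5.82, 4.28, 12.3 and 4.92 CPM at 5 d against 0.134, 0.11, 0.223 and 0.377 CPM, and 15.1, 3.8, 19.6 and 1.1 CPM at 28 d against 0.423, 0.321, 0.256 and 0.229 CPM, without overlap at either time. It rose by 4.14 (SE 0.83, FDR 0.000727) and 3.92 (SE 0.87, FDR 0.00184), the latter 5.46 (SE 0.80, FDR 1.86e-05) without D720 and D844. At 8 d the rAAV-OVA mice had 6.0 to 7.61 CPM and D720 had 5.47 CPM, and the Log2FC of 2.05 (SE 0.78, FDR 0.0677) did not pass, while without D720 and D844 it did at 3.54 (FDR 0.00201), and DESeq2 over all mice called it too. Ccl17 stayed below 2 CPM in every mouse but D845, which had 6.82 CPM at 28 d. It measured 1.92, 0.705, 6.82 and 0.448 CPM at 28 d against 0.231, 0.281, 0.293 and 0.229 CPM, and was called there with 2.60 (SE 0.65, FDR 0.00422), and not at 5 d with 1.26 (SE 0.64, FDR 0.143). Ccl17 without D720 and D844 was called at 5 d as well and had 0.32 (SE 0.68, FDR 0.752) at 8 d and 3.13 (SE 0.69, FDR 0.00144) at 28 d, where the value of 8 d did not pass.

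Cxcl13, the ligand of Cxcr5 that organises B cell follicles, was called at 28 d in mice that lack mature B cells. It measured 4.2, 4.51, 130.3 and 4.17 CPM in the rAAV-OVA mice and 0.654, 0.962, 0.0366 and 0.0915 CPM in the rAAV-control mice, so that D845 alone held 130.3 CPM and the other 3 mice 4.17 to 4.51 CPM. The Log2FC was 5.18 (SE 1.47, FDR 0.00954), and when a mouse was left out the Log2FC fell as low as 3.02 and the FDR reached 0.16. At 5 d the groups did not overlap either, with 3.61, 6.53, 5.14 and 5.19 CPM against 0, 0.438, 0.0742 and 0.628 CPM, but the test gave 3.03 (SE 1.45, FDR 0.118), a value that was called without surrogate variables. At 8 d, with D720 at 10.4 CPM, above all rAAV-OVA mice, it gave 1.40 (SE 1.36, FDR 0.479). Cxcl13 without D720 and D844 was called at 5, 8 and 28 d, with 6.48 (SE 2.13, FDR 0.0289) at 8 d and 6.67 (SE 1.46, FDR 0.00144) at 28 d. At 2 d the rAAV-control mouse D743 had 8.54 CPM and the other 3 had 0.937, 0.741 and 0.902 CPM.

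Cxcl12, a homeostatic ligand that guides neurons in development and holds leukocytes at blood vessels, was the 1 member called lower over all mice. At 5 d it measured 20.7, 30.9, 35.8 and 32.8 CPM in the rAAV-OVA mice and 59.4, 66, 60.7 and 56.1 CPM in the rAAV-control mice. All 4 rAAV-OVA mice lay below the rAAV-control mice, and the Log2FC was -0.87 (SE 0.20, FDR 0.00226), a call that held with each mouse left out. At 8 d it had -0.54 (SE 0.21, FDR 0.0696) and at 28 d 0.27 (SE 0.20, FDR 0.299), with 46.6, 52.4, 88.1 and 74.4 CPM against 69.7, 61.3, 54.9 and 51.6 CPM at 28 d. Cxcl12 without D720 and D844 was called lower at 8 d as well and had -0.67 (SE 0.24, FDR 0.0453) at 8 d and 0.20 (SE 0.26, FDR 0.571) at 28 d. The response at 28 d was higher than that at 5 d by 1.14 (SE 0.27, FDR 0.00945) in the interaction test, where 6.18% of all genes were called. Choroid plexus markers also differed at 5 d, with 4 of 5 lower and a summed level of 46.7 to 137 CPM with OVA and 39.9 to 3747 CPM without it. The 5 endothelial markers included 0 called at 5 d in edgeR, with sums of 108 to 139 CPM with OVA and 143 to 158 CPM without it. At 28 d 4 of the 5 were higher, with sums of 170.1 to 306 CPM against 120.0 to 152 CPM, and 2 of the 5 were called with a higher response at 28 d than at 5 d. The part of these cells in the Cxcl12 values was not tested.

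Cxcr4, the signalling receptor of Cxcl12, rose at 5, 8 and 28 d. It measured 14, 18.9, 17.6 and 14.4 CPM at 5 d against 3.8, 4.35, 4.3 and 5.54 CPM, and 18.7, 12.2, 33.6 and 6.72 CPM at 28 d against 1.73, 2.97, 2.41 and 2.61 CPM. The groups were separate at 5, 8 and 28 d, and the Log2FC was 1.32 (SE 0.41, FDR 0.0175), 2.02 (SE 0.44, FDR 0.0030) and 2.28 (SE 0.43, FDR 0.00059). Cxcr4 without D720 and D844 had 2.47 (SE 0.53, FDR 0.00155) at 8 d and 2.68 (SE 0.50, FDR 0.000287) at 28 d. Ackr3, the atypical receptor that removes Cxcl12, was not called over all mice. It measured 10.5, 11.1, 8.77 and 13.4 CPM at 28 d against 14.5, 15.1, 14.2 and 15.5 CPM, each rAAV-OVA mouse below each rAAV-control mouse, with -0.50 (SE 0.19, FDR 0.0432), under the limit on the Log2FC. Ackr3 was called lower at 28 d without D720 and D844, with -0.80 (SE 0.20, FDR 0.00387), and also without D844 alone or without BEC-B542.

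Cx3cl1, the membrane-bound ligand of neurons, was not called over all mice or without D720 and D844. It measured 477, 474, 492 and 438 CPM in the rAAV-OVA mice at 8 d and 649, 645 and 746 CPM in the rAAV-control mice, which did not overlap, with -0.41 (SE 0.15, FDR 0.0567). At 28 d it had 364, 468, 315 and 685 CPM against 644, 559, 627 and 557 CPM and -0.31 (SE 0.14, FDR 0.0921), with D844 the highest rAAV-OVA mouse. Cx3cl1 without D720 and D844 had -0.51 (SE 0.15, FDR 0.0138) at 8 d and -0.656 (SE 0.15, FDR 0.00235) at 28 d, both past the FDR and smaller than the limit of 0.66. The 3 neuron markers listed summed to 2048 to 2730.0 CPM with OVA and 2574 to 3807 CPM without it at 8 d, and to 1345 to 2672 against 3199 to 3819 CPM at 28 d, where 2 were called lower. Of the 4 hippocampal neuron markers 2 were also lower at 28 d, and the part of either list was not tested. The receptor of Cx3cl1, Cx3cr1, a gene of microglia and of patrolling monocytes, was called at 28 d over all mice. It measured 249, 177, 253 and 85.7 CPM with OVA and 67.8, 73.3, 63.2 and 50.8 CPM without it, again without overlap, a Log2FC of 1.30 (SE 0.26, FDR 0.000855). At 5 d the values were 122, 123, 119 and 119.9 CPM against 77.6, 71.8, 91.4 and 129.8 CPM, with 0.14 (SE 0.26, FDR 0.706), and at 8 d it had 0.50 (SE 0.26, FDR 0.181). Cx3cr1 without D720 and D844 was called at 8 d too and had 0.88 (SE 0.22, FDR 0.00543) at 8 d and 1.94 (SE 0.22, FDR 1.26e-06) at 28 d. The response at 28 d exceeded that at 5 d by 1.16 (SE 0.33, FDR 0.0298). Of the microglia markers in the table, 4 of 6 were higher at 28 d, with a sum of 436 to 1247 CPM against 339.6 to 368 CPM, and their part was not tested.

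**Figure D3:**
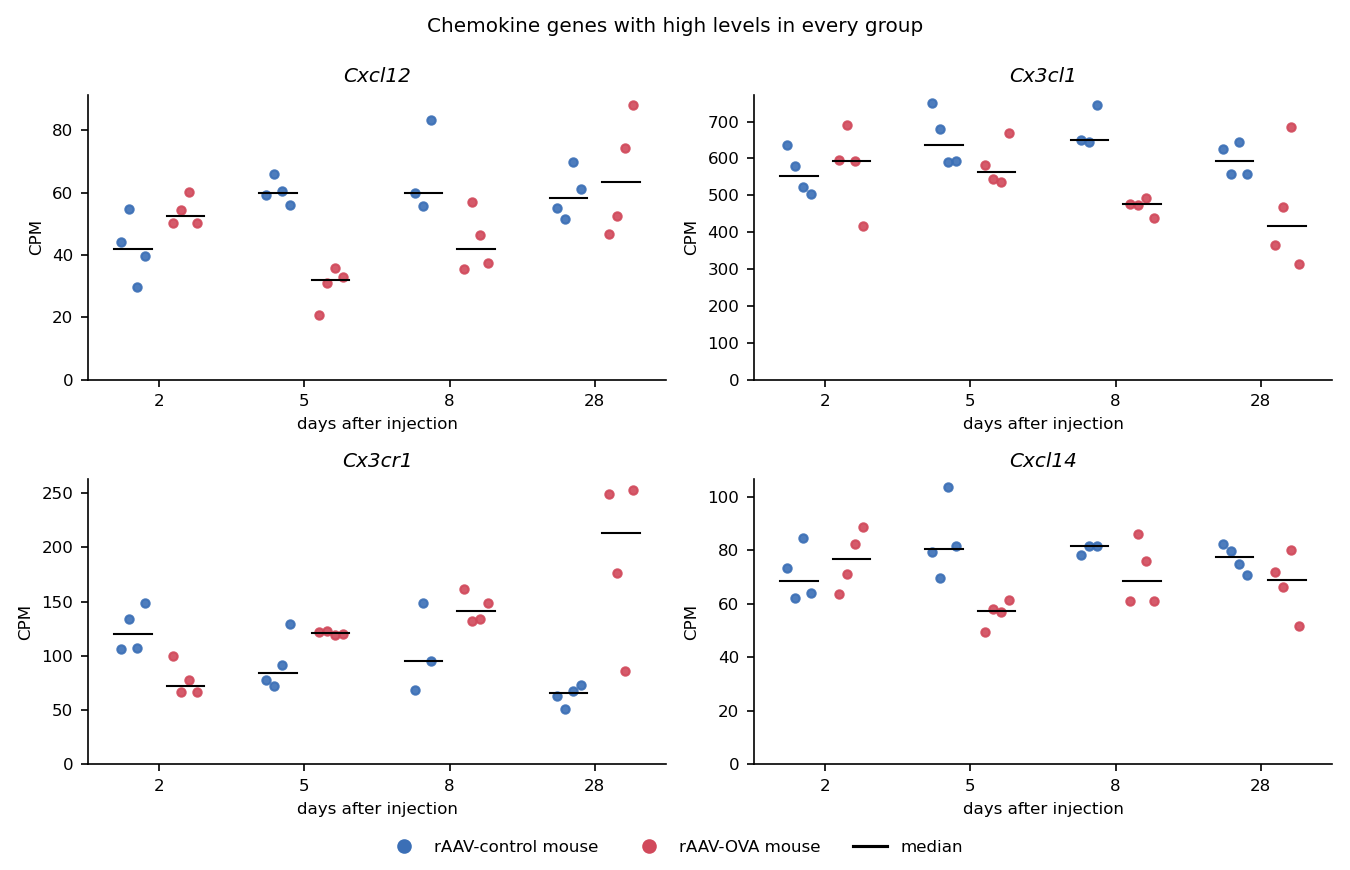
CPM of Cxcl12, Cx3cl1, Cx3cr1 and Cxcl14 in every mouse on linear axes that start at 0, by days after injection, with rAAV-control mice in blue, rAAV-OVA mice in red and a black line for the median. At 5 d the rAAV-OVA mice had 20.7 to 35.8 CPM of Cxcl12, below the rAAV-control mice, and at 28 d 85.7 to 253 CPM of Cx3cr1, above them.

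Cxcl14, Ackr1, Ackr2, Ccl25, Ccl27a, Ccl28 and Cxcl5 were not called at any time over all mice or without D720 and D844, though Ackr2 was called lower at 28 d in batch 1 alone and Cxcl5 higher at 28 d without D851. Cxcl14, a chemokine that neurons also express, measured 49.4, 58.1, 56.8 and 61.3 CPM at 5 d against 79.5, 69.6, 104 and 81.6 CPM. The rAAV-OVA mice all lay lower, and the Log2FC of -0.47 (SE 0.11, FDR 0.00251) passed the FDR but not the limit of 0.66. The 3 neuron markers then summed to 2119 to 2461 CPM with OVA and 3279 to 3827 CPM without it, 1 of the 4 hippocampal neuron markers was called lower, and their part was not tested. Ackr1, a chemokine binding protein of venules, had 30.8, 28.8, 33.5 and 29.6 CPM at 5 d against 26.8, 22.5, 22.7 and 23.7 CPM, without overlap, and 0.42 (SE 0.17, FDR 0.0607). Over all mice, Ccl25, a ligand of Ccr9, ran from 2.51 to 5.97 CPM. Ccl27a and Ccl28, ligands of Ccr10 in skin and mucosa, ran from 9.8 to 59.2 CPM and from 0.778 to 5.31 CPM, and reads of Ccl27a are hard to tell from its near-identical copy Ccl27b. Cxcl5, a neutrophil attractant, ran from 0.167 to 6.92 CPM with overlapping groups at each time, and Ackr2, which degrades inflammatory CC chemokines, from 0.423 to 1.83 CPM. Ccrl2, which binds the attractant chemerin and does not signal, was the receptor-like member that rose at each time from 5 d. It measured 5.74, 5.33, 8.03 and 6.37 CPM at 5 d against 0.805, 1.35, 0.89 and 1.2 CPM, without overlap, and rose by 1.96 (SE 0.45, FDR 0.00231), 1.53 (SE 0.47, FDR 0.0273) and 1.66 (SE 0.48, FDR 0.0107) at 5, 8 and 28 d. At 8 d the groups overlapped, and that call was lost in 8 of the 31 fits that left out a mouse. Ccrl2 without D720 and D844 had 2.29 (SE 0.57, FDR 0.00538) at 8 d and 2.25 (SE 0.55, FDR 0.00319) at 28 d.

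**Figure D4:**
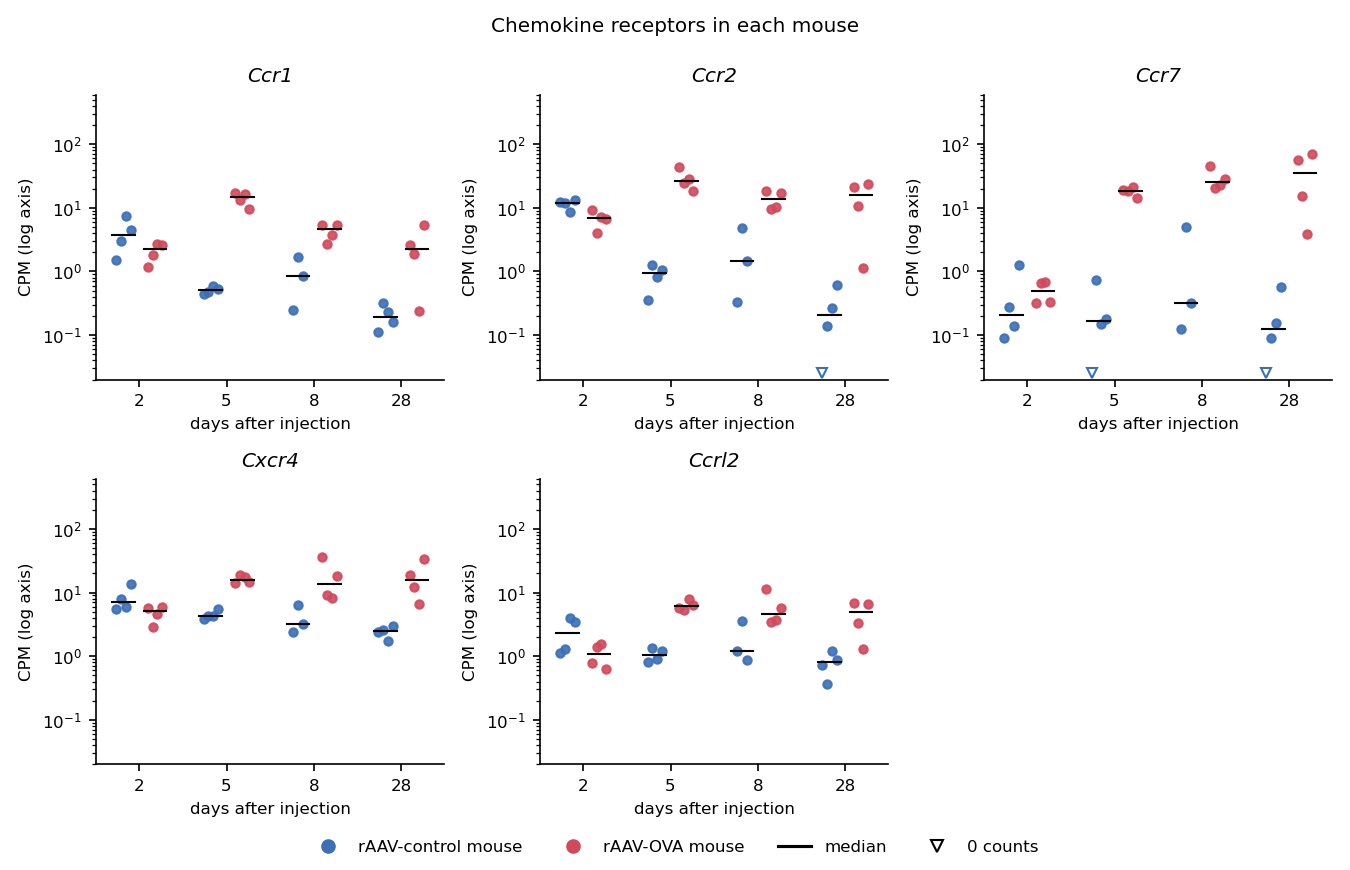
CPM of Ccr1, Ccr2, Ccr7, Cxcr4 and Ccrl2 in every mouse on a log axis, by days after injection, with rAAV-control mice in blue, rAAV-OVA mice in red, a black line for the median and a triangle for a mouse with 0 counts. At 5 d the rAAV-OVA points of each receptor lie above all rAAV-control points, and the rAAV-control mice of 2 d lie higher in Ccr1 and Ccr2 than those of 28 d.

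Levels of different genes were compared per kb of the longest protein-coding transcript in GENCODE M21, as group means ± SD. In the rAAV-control mice of 5 d the highest members were Cx3cl1 with 197 ± 23.3 CPM per kb, Cxcl14 with 45.8 ± 7.88, Ccl27a with 30.5 ± 6.6, Ackr1 with 20.8 ± 1.72, Cx3cr1 with 20.6 ± 5.81 and Cxcl12 with 10.8 ± 0.731 CPM per kb (n = 4). In the rAAV-OVA mice Cxcl10, with 187 ± 75.2 CPM per kb, and Cx3cl1, with 176 ± 18.5, were highest and lay within each other's spread. Ccl5 followed with 127 ± 18.6, Xcl1 with 68.1 ± 13.3, Ccl2 with 55.2 ± 22.1, Cxcl9 with 49.3 ± 11.1 and Ccl7 with 39.9 ± 21.2 CPM per kb, and from Xcl1 to Ccl7 neighbours in this order did not differ beyond their SD. Receptors that rose were lower, with 9.16 ± 1.5 for Ccr7, 8.98 ± 1.32 for Cxcr4, 5.04 ± 1.93 for Ccr2 and 4.94 ± 1.2 CPM per kb for Ccr1.

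**Figure D5:**
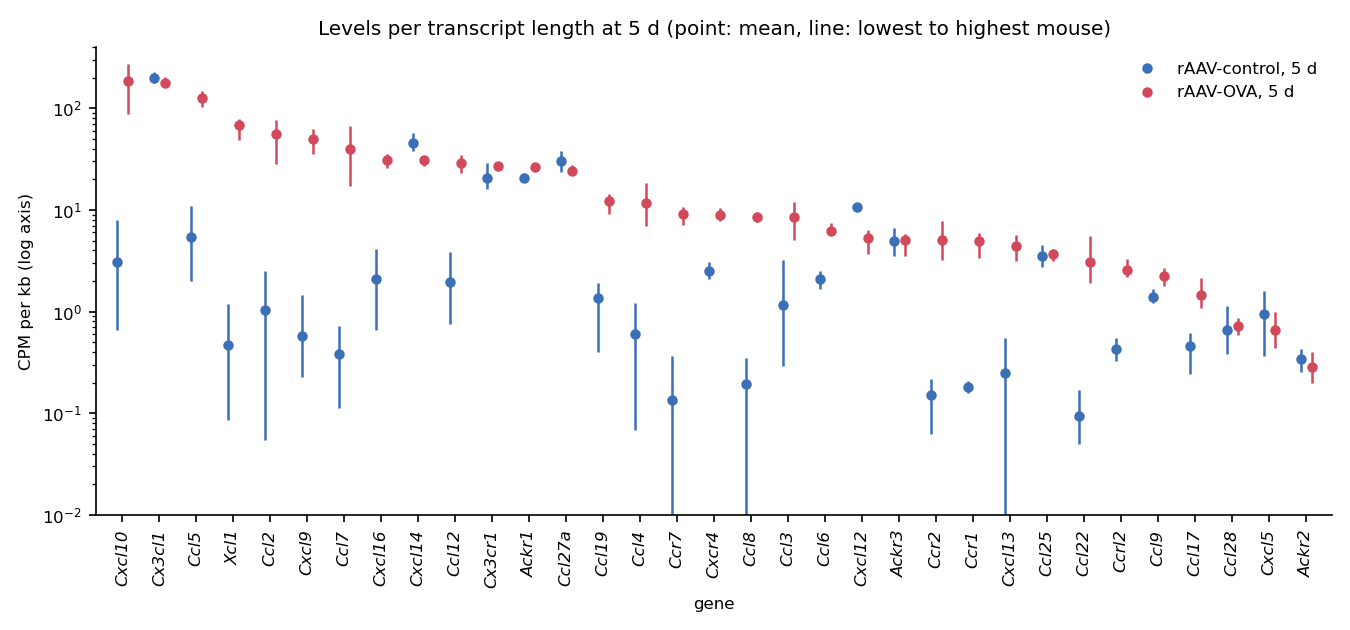
CPM per kb of transcript for the members at 5 d on a log axis, in the order of the rAAV-OVA mean, with points for the mean of 4 mice and lines from the lowest to the highest mouse, rAAV-control in blue and rAAV-OVA in red, and a line that meets the lower edge reaches 0. Cx3cl1 is high in both groups, at 197 and 176 CPM per kb, while Cxcl10, Ccl5 and Xcl1 stand far above their rAAV-control level.

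Whether the response changed with time was tested as an interaction. Between 5 and 28 d, 2 members were called, Cxcl12 and Cx3cr1, both with a higher response at 28 d, against 6.18% of all genes called and 3.86% called with a higher response. Neither call held in every fit that left out 1 mouse, with Cxcl12 lost without BEC-B542 or D845 and Cx3cr1 lost without D725, D726, D787, D755, D661 or D706, and a fit of batch 1 alone called 0 members and 40 of all genes with edgeR, with 5 members at an unadjusted p under 0.05. Without D720 and D844, Ccl6 and Ccl19 were called as well. Between 5 and 8 d edgeR called 0 members, against 0.179% of all genes, and DESeq2 called 0, against 68 of all genes. At an unadjusted p under 0.05 were 3 and 5 members, a level that 7.29% of all genes passed in edgeR. Between 8 and 28 d 0 members were called by either tool, against 0% of all genes in edgeR and 158 of all genes in DESeq2. In each, 5 members had an unadjusted p under 0.05, a level that 16.1% of all genes passed in edgeR. For all other members a difference between the times was not shown, whichever times they were called at.

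The rAAV-control mice themselves differed with time. At 2 d, 12 members were higher in the rAAV-control mice than at 28 d, against 2.96% of all genes called and 2.82% higher, and 0 members were lower. Ccr2 had the largest difference, with 8.48, 13.1, 12.2 and 11.9 CPM at 2 d against 0.269, 0.602, 0 and 0.137 CPM at 28 d, a Log2FC of 5.23 (SE 0.73, FDR 0.00103). Ccl3 measured 5.95, 18.4, 1.42 and 2.85 CPM against 0.115, 0.321, 0.256 and 0.275 CPM, with 4.60 (SE 0.97, FDR 0.00796). Ccr1 with 3.73 (SE 0.55, FDR 0.00107) and Cxcl16 with 3.50 (SE 0.69, FDR 0.00509) were also higher, and these 2 and Ccr2 were called with each mouse left out. The others included Ccl4, Ccl5, Ccl7, Ccl9, Ccl12, Cxcr4 and Cx3cr1, with Log2FC values from 0.87 for Cx3cr1 to 3.80 for Ccl4. The count fell to 3 without D743, the rAAV-control replicate 2 of 2 d, to 4 without D705, to 6 without D851 or D706, all rAAV-control mice of 28 d, and to 7 without D740 or D696, rAAV-control mice of 2 and 8 d. These falls are given without the number of all genes called in the same fits and cannot be read as particular to the members. In the same mice the monocyte and macrophage markers summed to 153 to 955 CPM at 2 d and 10.4 to 23.3 CPM at 28 d, and their part was not tested. Each comparison above used the rAAV-control mice of its own day.

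Genes around the chemokines were read from lists. Of 10 inducers of chemokine genes in the table, of 12 listed, 6 rose at 5 d and 7 each at 8 and 28 d, where 9.56%, 9.36% and 12.7% of all genes rose at 5, 8 and 28 d, with a median Log2FC of 1.29 at 5 d against -0.0123 over all genes. Ifng, the gene of interferon gamma, and Il6 were listed but were not in the table. Irf1, a transcription factor that interferon gamma induces, rose at 5 d by 3.59 (SE 0.52, FDR 4.59e-05). The cytokines Il1b and Tnf rose by 4.61 (SE 0.80, FDR 0.000212) and 3.84 (SE 0.86, FDR 0.00183), and Nfkb1 and Tnfrsf1a by 1.21 and 1.38. Of 35 genes of receptor signalling, of 36 listed, 14 rose and 1 fell at 5 d, 15 rose at 8 d, and 20 rose and 1 fell at 28 d, beside the same shares of all genes. Those that rose at 5 d included the leukocyte genes Rac2 and Dock2 of the migration machinery, with 1.93 and 1.57, Pik3cg, the kinase that G protein subunits activate, with 1.38, the Src family kinases Fgr and Lyn, and Rgs1, which shortens chemokine receptor signals, with 3.70 (SE 0.69, FDR 0.000387). Rgs14, a regulator expressed in hippocampal neurons, fell by 0.79 (SE 0.22, FDR 0.00841) on the log2 scale. The widely expressed Gnai2, Gnb1 and Arrb2 were not called, with 0.23, -0.18 and 0.26. Pf4, a platelet chemokine outside the symbol rule, had -1.20 (SE 0.53, FDR 0.0915) at 5 d.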

How the data were processed

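Whole-hippocampus RNA-seq libraries of 31 mice were analysed. The authors trimmed reads with fastp, quantified transcripts with Salmon (1.8.0) against GENCODE M29 with the genome as decoy and GC correction, summed them to genes with tximeta, kept genes with 15 or more counts in 15 or more mice, and deposited estimated counts, rounded to whole numbers and not scaled for depth, with symbols for all but 824 genes. Salmon assigns reads shared by near-identical genes by probability, which can move counts between copies. The study's own tests used DESeq2 (1.36.0). Members and gene lists were chosen with earlier results of these data known. All 15648 genes were fitted with edgeR (4.0.16; TMM factors 0.897 to 1.11, robust quasi-likelihood test) in R (4.3.3) with limma (3.58.1), in a model of 8 groups and the 2 leading surrogate variables that sva (3.50.0) found. A gene was called at an FDR of 0.05 or lower and a Log2FC of 0.66 or more in size. Some items, 1 receptor among the members included, are not reported here by name and stay in the counts. The other members are named, called members with values by mouse or group, and of listed genes those that help to describe the list. Alternatives were DESeq2 (1.42.0), its size factors, other covariates, a filter at a mean of 1 CPM, the days or batches alone, no limit on the Log2FC, each mouse left out, and both mice that stood apart left out. Counts of no 2 mice of a group agreed within sampling noise (the lowest chi-square per gene over 45 pairs was 11.9), and 0 columns were unused. With 200 of 15648 genes changed in simulated counts for the 5 d comparison, 73% of 2-fold and 93% of 4-fold changes were recovered with 1 false call. Totals of 19046977 to 57407902 counts per mouse limit the precision of genes near 1 CPM and below. Promoter sequences came from RefSeq on GRCm38.p6, and lengths from GENCODE M21, and coordinates of the counted genes on their own build were not used here.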

Additional observations from a re-analysis of the deposited data

Results flagged for a closer look

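In 12 of 231 groups of 4 mice, 5.19%, 1 mouse lay far from the other 3 by Dixon's criterion, where chance alone gives about 5%. Cxcl13 appeared 4 times. It measured 130.3 CPM in D845 of the rAAV-OVA mice at 28 d, next to 4.51 CPM in the nearest mouse, 9.03 CPM in D700 of the rAAV-OVA mice at 8 d, next to 4.34 CPM, 1.2 CPM in BEC-B541 of the rAAV-OVA mice at 2 d, next to 0.21 CPM, and 8.54 CPM in D743 of the rAAV-control mice at 2 d, next to 0.937 CPM. D743 was also high in Ccr7, with 1.27 CPM against 0.278 CPM. At 5 d, D726 of the rAAV-OVA mice was high in Ccl6 with 10.7 CPM and in Ccl27a with 23.1 CPM, and D786 was low in Ackr3 with 10.8 CPM. Among the rAAV-control mice of 5 d, D755 was high in Ccl3 with 2.46 CPM and D724 in Cxcl9 with 4.24 CPM. D740 of the rAAV-control mice at 2 d was high in Ccl17 with 0.703 CPM, and D851 of those at 28 d in Cxcl5 with 4.05 CPM, next to 0.961 CPM. The rAAV-control group of 8 d, with 3 mice, was not examined in this way.

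Responses to OVA differed between 5 and 28 d in the interaction test for Cxcl12, by 1.14 on the log2 scale, and for Cx3cr1, by 1.16, both toward higher values at 28 d. The mice of batch 2 were in the 28 d groups and not in the 5 d groups, and in batch 1 alone neither difference was called.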

How the results depend on the processing

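The counts of called members at 2 and 5 d, and of those whose response was called different between 5 and 8 d or 8 and 28 d, stayed within 1.5 times in all alternatives run. Members at an unadjusted p under 0.05 moved further, from 10 at 2 d to between 0, in batch 2 alone, and 12, from 3 between 5 and 8 d to between 2 and 15, and from 5 between 8 and 28 d to between 2 and 15. At 8 d the 10 ligands became 4 without surrogate variables, 4 with the batch label in their place, 0 with the mice of that day alone, and 1 to 12 with 1 mouse left out, and the 6 receptors became 0 with the mice of that day alone and 2 to 6 with 1 mouse left out. Of all genes, 1556 were called at 8 d in the main fit, 1274 without surrogate variables and 1329 with the batch label. At 28 d the 12 ligands and 7 receptors became 0 and 0 in batch 2 alone, a fit of 4 mice. The 2 members whose response differed between 5 and 28 d became 1 without surrogate variables, 1 with the batch label, 1 with the mice of those days alone, 0 in batch 1 alone, 4 without D720 and D844, and 1 to 2 with 1 mouse left out. All genes called there went from 967 to 400 without surrogate variables and to 494 with the batch label. The 12 members that differed between rAAV-control mice of 2 and 28 d became 7 with the mice of those days alone, 0 in batch 2 alone and 3 to 15 with 1 mouse left out. The causes of these shifts were not tested, except that the fits of single days or batches hold fewer mice by construction.

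For called members, 1299 values of 69 Log2FC results were computed under the alternatives, of which 1124 kept direction and call, 175 lost the call and 0 changed sign. Of 530 values of the 30 uncalled Log2FC results of members that the text gives over all mice, 461 stayed uncalled, 63 became called and 6 changed sign. The Cxcl12 log2 fold change, 28 d, became -0.0862 in batch 1 alone and ran from -0.0463, without the rAAV-OVA replicate 3 of 28 d, to 0.3973 with 1 mouse left out. The Cx3cr1 log2 fold change, 5 d, ran from -0.0493, without the rAAV-control replicate 2 of 5 d, to 0.3935, without replicate 4 of that group. The Ccl12 log2 fold change, 8 d, ran from -0.023, without the rAAV-control replicate 1 of 8 d, to 1.5661, without replicate 2 of that group. In batch 1 alone the Cxcl10 log2 fold change, response 28 d minus 5 d, was 0.018 and the Cxcl9 log2 fold change, response 28 d minus 5 d, was 2.5892. The fit without D720 and D844 was added after the data had been seen. Leaving out both raised the number of called members at 5, 8 and 28 d to 23, 22 and 25 and ended no call, and of all genes 2696, 2181 and 3296 were called. The mice were chosen for their high and low member levels, so the gain in members at 8 and 28 d follows from that choice.

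No paired analysis was possible because a replicate number here names 1 mouse and links no mice between groups. All comparisons shared 1 estimate of the spread and of the surrogate variables, so mice of other days enter each of them. Genes with few counts in the rAAV-control mice, such as Ccl7, Ccl8 and Xcl1 at 28 d, have folds of low precision, and 28 further family members were not analysed here.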

Other observations

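Receptors for attractants other than chemokines were read from a list. Of the 7 in the table, of 9 listed, 4 were called higher at 5 d, 5 at 8 d and 6 at 28 d, and 0 lower, against 9.56%, 9.36% and 12.7% of all genes called higher. Their summed level was 176 to 205 CPM with OVA and 177 to 212 CPM without it at 5 d, which overlapped. Fpr2, a formyl peptide receptor of phagocytes, had a Log2FC of 3.74 (SE 0.92, FDR 0.0039) at 5 d and 3.90 (SE 1.29, FDR 0.0228) at 28 d. C5ar1, the receptor of complement C5a, had 2.58 (SE 0.43, FDR 0.000142) at 5 d, and Ptafr, the receptor of platelet-activating factor, 2.08 (SE 0.49, FDR 0.00303). Cmklr1, the signalling receptor of chemerin, which Ccrl2 also binds, had 1.77 (SE 0.32, FDR 0.000256) at 5 d and 1.41 (SE 0.33, FDR 0.00254) at 28 d. S1pr4, a sphingosine phosphate receptor of lymphocytes, was called at 8 d with 3.02 (SE 0.55, FDR 0.00070) and at 28 d with 2.52 (SE 0.54, FDR 0.00137), and Gpr183, which guides lymphocytes and dendritic cells along oxysterols, at 28 d with 1.65 (SE 0.42, FDR 0.0050).

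Of 13 genes for shedding, cleavage and presentation of chemokines in the table, of 15 listed, 5 were called higher at 5 d, 4 at 8 d and 5 at 28 d, against the same shares of all genes. Adam17, a protease that releases membrane-bound Cx3cl1, had 0.99 (SE 0.27, FDR 0.00773) at 5 d, while Adam10, which releases Cx3cl1 and Cxcl16, had 0.32 (SE 0.098, FDR 0.0156) and was not called. Dpp4, which trims the ends of chemokines such as Cxcl10 and Cxcl12, had 1.88 (SE 0.59, FDR 0.0183) at 5 d and 3.36 (SE 0.63, FDR 0.000603) at 28 d. Sdc1, a proteoglycan that holds chemokines at cell surfaces, had 1.68 (SE 0.52, FDR 0.0174) at 5 d. Mmp14 was called at 5, 8 and 28 d, and Mmp2 at 28 d with 1.69 (SE 0.44, FDR 0.00573). The 3 T cell markers and 5, 5 and 6 of the 7 monocyte and macrophage markers were called higher at 5, 8 and 28 d, and their part in these results was not tested.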
